A study of Mus musculus with 106 samples.

Results

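The genes described here encode 8 pore-forming α1 subunits of voltage-gated calcium channels (Cacna1a, Cacna1b, Cacna1c, Cacna1d, Cacna1e, Cacna1g, Cacna1h and Cacna1i) and a pair of auxiliary α2δ subunits (Cacna2d1 and Cacna2d2). They are 10 of the 21897 protein-coding genes among the 55401 mouse genes counted, and were chosen by name, not by a threshold on any value. Voltage-gated calcium channels open when the membrane depolarizes and admit calcium, which shapes firing, triggers transmitter release and reaches gene regulation. The α1 subunit forms the pore and sets the class of current: P/Q-type for Cacna1a, N-type for Cacna1b, L-type for Cacna1c and Cacna1d, R-type for Cacna1e, and low-voltage-activated T-type for Cacna1g, Cacna1h and Cacna1i. The α2δ subunits lie on the outer face of the membrane and help carry channels to the surface, where they act with cytoplasmic β subunits.

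The series holds 106 RNA-seq libraries from 45 mice, of which 67 are RiboTag immunoprecipitates (IP) and 39 are total RNA of the same kinds of homogenate. In RiboTag mice, Cre recombinase switches on a hemagglutinin-tagged copy of the ribosomal protein Rpl22, and an antibody to the tag recovers ribosome-bound RNA from the cells that express Cre. HD mice were Hdh Q7/Q200 and controls Hdh Q7/Q7 on the 129S4 background, heterozygous for Rpl22-HA and for Gad2-IRES-Cre, PV-IRES-Cre or vGluT2-IRES-Cre, and were studied at 9 months. An SST line is labelled in the series too, but its driver allele and the age of its mice were not given. The comparisons below ask at which level each channel gene was found in each cell type, and whether that level differed between HD and control mice.

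IP libraries of the cerebrum without the olfactory bulb came from 6 control and 6 HD mice for Gad2, 6 and 5 for PV, 5 and 4 for SST, and 6 and 6 for vGluT2. Cerebellar IP libraries came from 6 control and 6 HD mice for Gad2 and from 5 and 6 for vGluT2. Total RNA of the cerebrum came from 3 control and 3 HD mice of the Gad2, PV and vGluT2 lines and from 4 and 3 of the SST line. Cerebellar total RNA came from 3 and 3 mice of the Gad2 line and 4 and 4 of the vGluT2 line. Each PV library pooled duplicated IPs of a single homogenate. Estimated counts on mouse genes summed to between 21905221 and 107753586 per library, with a median of 35866726. The IP libraries spanned 23256772 to 107753586 and the total RNA libraries 21905221 to 62160033. A set of 3 libraries, all of them HD IPs (cerebellar Gad2, PV and cerebral vGluT2), had been sequenced again, so for them an effect of the run cannot be told apart from an effect of genotype. The SST controls came in part from a separate series of mouse numbers that holds no HD mouse.

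Marker genes were compared between IP and total RNA to check the labels. Gad1, Gad2 and Slc32a1 were higher in the Gad2 IPs by 2.12, 1.73 and 1.93 (log2) in the cerebrum and by 2.03, 1.83 and 1.94 in the cerebellum. The 8 striatal markers were all higher in the cerebral Gad2 IP, and the 5 Purkinje markers and 5 markers of other cerebellar GABAergic neurons were all higher in the cerebellar Gad2 IP. Pvalb was higher by 2.38, Syt2 by 2.35 and Kcnc1 by 1.79 in the PV IP, and Sst by 2.60, Lhx6 by 2.31 and Nos1 by 0.97 in the SST IP. Slc17a6, which encodes vGluT2, was higher by 0.97 in the cerebral vGluT2 IP, where 4 of 4 thalamic markers were higher, and by 1.52 in the cerebellar vGluT2 IP, where 6 of 6 granule cell markers were higher. The markers of each labelled cell type were thus higher in its IP, and some markers of other cell types were higher too. Slc17a6 was higher by 1.2 in the PV IP and by 1.09 in the SST IP, and the Purkinje genes Pcp2, Ppp1r17 and Car8 were higher in the PV IP by 3.01, 2.73 and 2.49. The higher Purkinje values were carried by a few libraries. Pcp2 was at 163 CPM (counts scaled to the size of the library) in HD PV replicate 3, 77.0 in control replicate 2, 38.9 in control replicate 6 and 15.3 in control replicate 4. It lay between 0.473 and 2.78 in the other 7 PV IPs. Slc17a6 was at 69.0 CPM in HD PV replicate 3 and at 72.1 to 155 CPM in the other PV IPs. Glial markers were mostly lower in the IPs, but Slc1a2 was higher by 0.68 in the SST IP.

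Some libraries stood apart from their groups. HD PV replicate 3 had 212 CPM of Cacna1g, against 37.9 to 47.9 in the other HD PV IPs. In that library 5 of 5 Purkinje markers and 6 of 6 granule cell markers were above every other PV IP. Its Purkinje markers summed to 1646 CPM, against 119.7 to 715 in the other PV IPs, and Calb1 alone gave 677. Its granule cell markers summed to 595 CPM, against 46.4 to 281, and Cbln3 gave 203. Control PV replicate 2 had the highest sums of both lists among the other PV IPs (715 and 281 CPM) and the highest Cacna1g of the control PV IPs (81.6). Among vGluT2 libraries of the cerebellum, control IP replicate 5 (109 CPM), HD IP replicate 5 (70.4) and control total RNA replicate 4 (61.3) had the highest Slc17a6 of their groups and also the highest or an outlying Cacna1h, at 5.55, 3.23 and 6.19 CPM. Protein-coding genes held 77.4% of the counts in control cerebellar Gad2 IP replicate 5, against at least 97.3% in the other 5 controls, and that library had the highest Cacna1b, Cacna1c, Cacna1e and Cacna2d1 of its group. They held 81.8% in the re-sequenced HD cerebral vGluT2 IP, against at least 96% in the other HD IPs of that group, and its Cacna1h was 12.2 CPM, against 25.1 to 37.7. Without either library no member gained or lost a call in the HD effects by group and the level comparisons that used it. The share was also low in control cerebral Gad2 IP replicate 5 (89.07%, others at least 96.32%). It was 91.69% in HD cerebellar vGluT2 IP replicate 6 (others at least 97.02%) and 93.38% in control cerebral vGluT2 IP replicate 6 (others at least 97.03%). Member calls that changed without a library are given below. An index of transcript length, chosen after seeing the data, was taken as the median shift of long minus that of short transcripts in a library (log2), relative to its line, region and preparation. In total RNA of the cerebellar vGluT2 line it was 0.634, 0.522, 0.277 and 0.639 in the 4 controls and -0.365, -0.565, -0.746 and -0.304 in the 4 HD mice, without overlap. In total RNA of the cerebellar Gad2 line it was -0.156, 0.641 and -0.219 in controls and -0.189, -0.623 and 0.609 in HD mice. The members are long transcripts, and 9 of 10 belong to the longest of 5 equal classes of expressed protein-coding genes, Cacna2d2 being the exception.

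All positions are on GRCm38 with GENCODE M21 gene models, and transcript lengths are unions of exons. Cacna1a (ENSMUSG00000034656.18) lies on chromosome 8 from 84388440 to 84640246 on the plus strand and has 11418 exonic bases. Cacna1b (ENSMUSG00000004113.18) lies on chromosome 2 from 24603887 to 24763152, minus, with 9942 bases. Cacna1c (ENSMUSG00000051331.16) lies on chromosome 6 from 118587240 to 119196418, minus, with 21191 bases. Cacna1d (ENSMUSG00000015968.18) lies on chromosome 14 from 30039939 to 30491455, minus, with 12621 bases, and Cacna1e (ENSMUSG00000004110.17) on chromosome 1 from 154390731 to 154884501, minus, with 25228 bases. For the T-type genes, Cacna1g (ENSMUSG00000020866.17) lies on chromosome 11 from 94408391 to 94474198, minus, with 10137 bases. Cacna1h (ENSMUSG00000024112.16) is on chromosome 17 from 25374285 to 25433783, minus, with 9763 bases, and Cacna1i (ENSMUSG00000022416.15) on chromosome 15 from 80287238 to 80398279, plus, with 9862 bases. Cacna2d1 (ENSMUSG00000040118.15) is on chromosome 5 from 15934691 to 16374511, plus, with 12416 bases. Cacna2d2 (ENSMUSG00000010066.15) is on chromosome 9 from 107399612 to 107529343, plus, with 7947 bases. No other gene overlapped exons of a member on the same strand. Antisense exon overlaps were 435 bases for Cacna1a, 589 for Cacna1d, 158 for Cacna1h and 82 for Cacna2d2.

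The question of which cell types carry which channel genes was addressed first in the control IPs. All 10 members differed between the cerebellar and cerebral Gad2 IPs, 4 higher and 6 lower in the cerebellum, where 24.6% of tested genes were called higher and 30.4% lower. Between the cerebellar vGluT2 and Gad2 IPs, 5 members were higher and 3 lower in vGluT2, against 32.9% and 25.8% of tested genes. The cerebellar vGluT2 IP had 4 members higher and 3 lower than the cerebral vGluT2 IP, against 33.8% and 29.8%. Within the cerebrum, PV had 3 members higher than Gad2 (5 with size factors, with no filter or with only the 2 groups) and none lower, against 25.3% and 28.1% of tested genes. SST had 5 higher and 1 lower than Gad2, against 25.2% and 28.2%. vGluT2 had 4 higher and 2 lower than Gad2, against 13.4% and 16.7%. PV and SST differed in 1 member, higher in PV, against 8.5% of tested genes higher and 6.24% lower. Each level is that of a population: more RNA per cell and more cells of a type within a Cre line cannot be told apart, for levels and for HD effects alike.

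**Figure D1:**
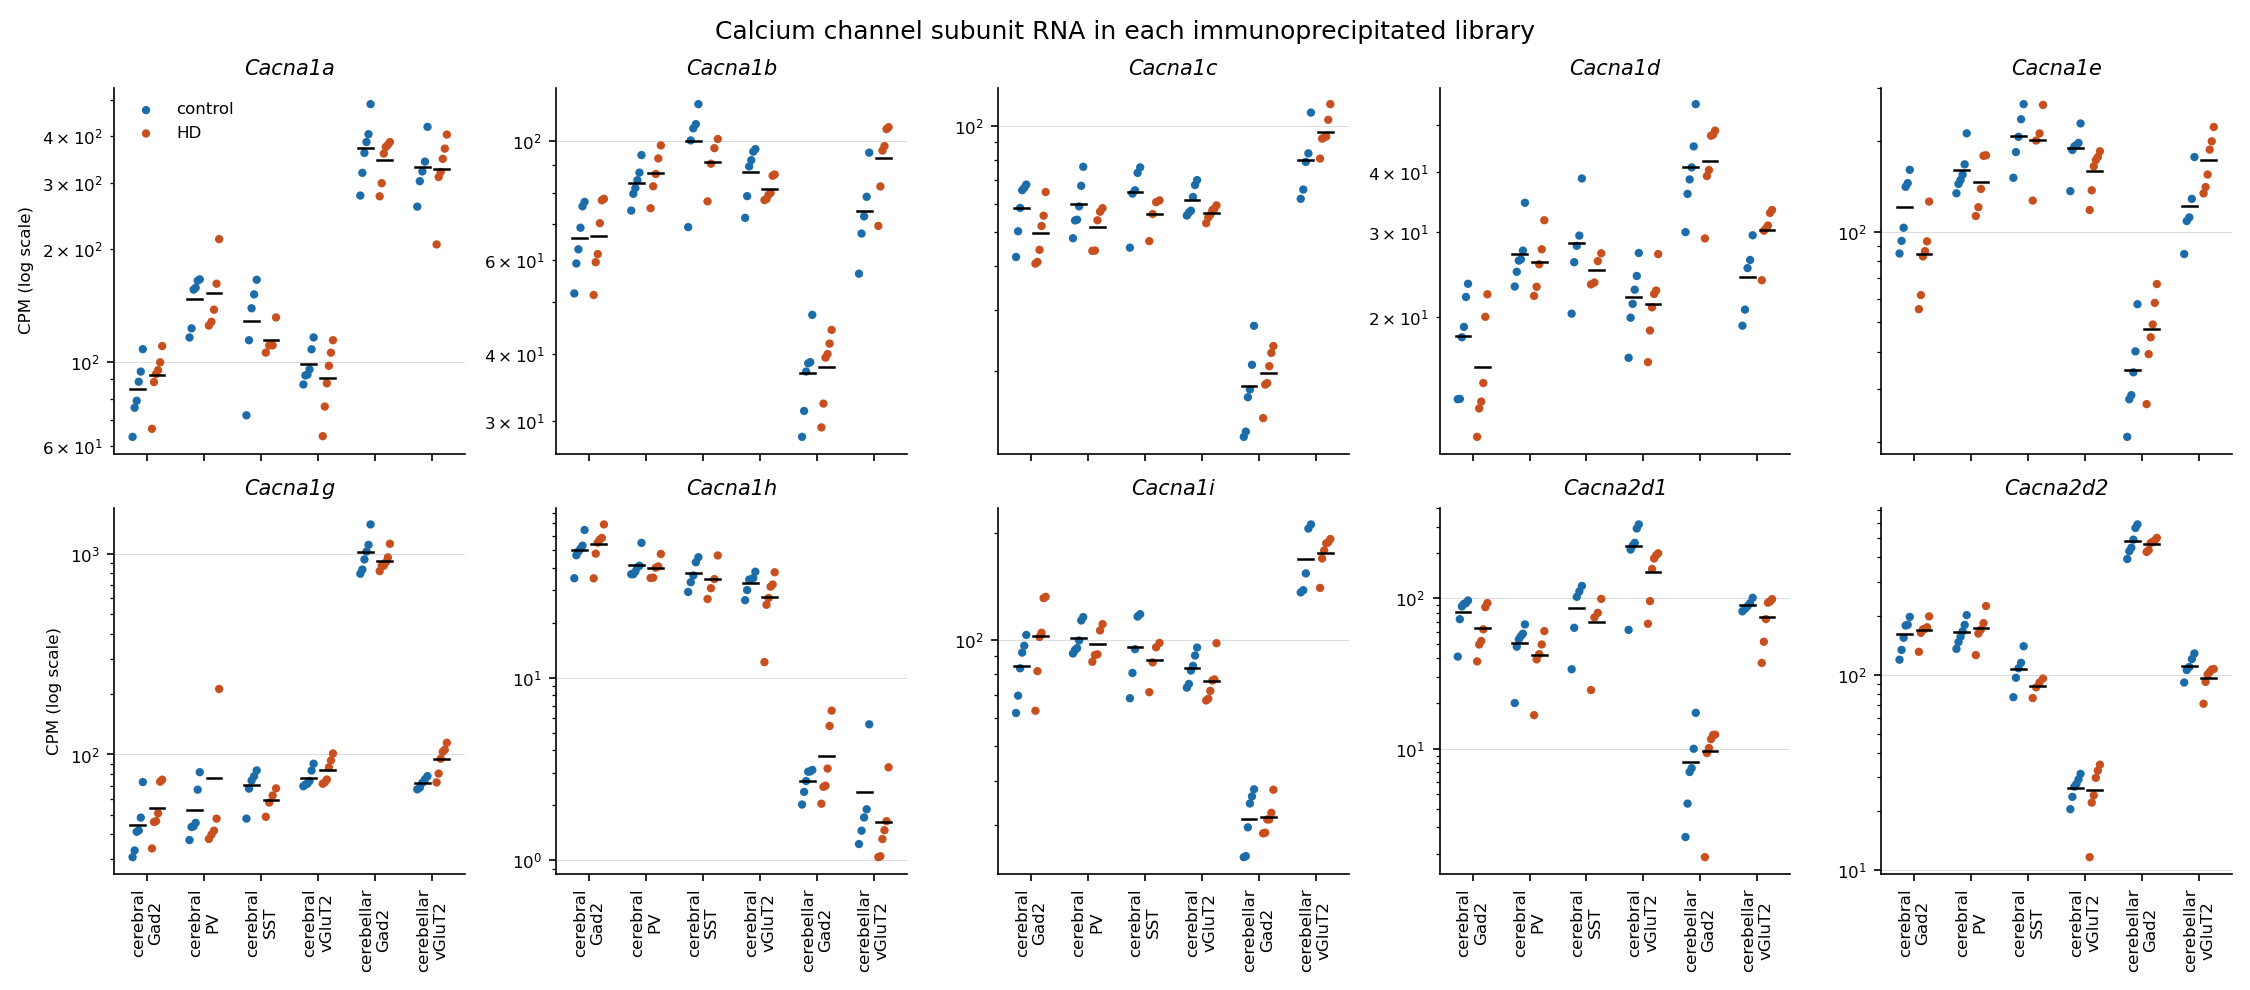
Level of each member (CPM, log axis) in each control and HD IP library, by cell type. Cacna1g lies between 797 and 1403 CPM in the 6 control cerebellar Gad2 IPs and at 89.9 CPM or below in every control IP of the other cell types.

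The P/Q-type gene Cacna1a, whose channel triggers transmitter release at many central synapses, was found at the highest level in the cerebellum. In control IPs it ranged from 278 to 487 CPM around a mean of 373 (SD 72.4) in cerebellar Gad2. The 5 cerebellar vGluT2 controls averaged 330.3 CPM (SD 60.4) and spanned 260 to 424. The cerebral groups followed at 147 CPM (SD 21.9) for PV, 129 (SD 36.8) for SST, 98.8 (SD 11.2) for vGluT2 and 84.9 (SD 15.8) for Gad2. The cerebellar groups overlapped each other and lay above every cerebral library, while neighbouring cerebral groups overlapped. The cerebellar Gad2 IP was above the cerebral one by 2.07 (log2; SE 0.16, adjusted p 4.58e-13), and cerebellar vGluT2 above cerebral vGluT2 by 1.76 (SE 0.17, adjusted p 3.24e-11). Cerebral Gad2 was exceeded by PV (0.82, SE 0.16, adjusted p 5.8e-05) and by SST (0.64). The cerebellar vGluT2 and Gad2 IPs were not distinguished (-0.14, adjusted p 0.482).

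The N-type gene Cacna1b, another channel of presynaptic terminals, varied least after Cacna1d, with a 2.71-fold span between the highest and lowest group mean. It averaged 99.8 CPM (SD 18.3) in SST, 87.3 in cerebral vGluT2, 83.5 in PV, 73.9 in cerebellar vGluT2 and 65.8 in cerebral Gad2, all overlapping with their neighbours. Every library of these groups lay above the cerebellar Gad2 IPs, which averaged 36.8 CPM (SD 6.69). The tests placed cerebellar Gad2 below cerebral Gad2 by -0.90 and cerebellar vGluT2 above cerebellar Gad2 by 1.04. Cerebral Gad2 was exceeded by PV (0.37, adjusted p 0.0135), by SST (0.64) and by cerebral vGluT2 (0.36). The last call was lost without control Gad2 replicate 1 (0.31, adjusted p 0.0769), replicate 5 (0.36, adjusted p 0.0508) or replicate 6 (0.34, adjusted p 0.0587), and without control vGluT2 replicate 3 (0.34, adjusted p 0.0574) or replicate 4 (0.34, adjusted p 0.0569). PV was called below SST without SST control replicate 1 (-0.38, adjusted p 0.0453). The cerebellar and cerebral vGluT2 IPs share mice, and with mouse as a block Cacna1b was called lower in the cerebellum (-0.34, adjusted p 0.0151). It was also called lower there with DESeq2 size factors (-0.31, adjusted p 0.0468) and without cerebellar vGluT2 control replicate 4 (-0.31, adjusted p 0.0499).

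The L-type channels, found on cell bodies and dendrites, link activity to gene expression. Of their genes, Cacna1c averaged 80.0 CPM (SD 18.6) in cerebellar vGluT2 and between 58.6 and 64.9 in the 4 cerebral groups, all overlapping. The cerebellar Gad2 IPs lay below all of them at 18.2 CPM (SD 5.20), -1.76 against cerebral Gad2, while cerebellar vGluT2 exceeded cerebellar Gad2 by 2.18 (SE 0.17, adjusted p 4.3e-13). The rise of Cacna1c from cerebral to cerebellar vGluT2 (0.39, adjusted p 0.0394) was no longer called with DESeq2 size factors (adjusted p 0.124), without the filter on counts (0.112), with only the 2 groups fitted (0.0614) or with mouse as a block (0.0519). It was also lost without cerebellar vGluT2 control replicate 2 (0.36, adjusted p 0.0758), 3 (0.40, adjusted p 0.0521) or 4 (0.27, adjusted p 0.168), and without cerebral vGluT2 control replicate 1 (0.37, 0.0591), 2 (0.39, 0.0557), 5 (0.36, 0.0752) or 6 (0.39, 0.0599). Cacna1d had the narrowest span, 2.24-fold, with group means from 40.9 CPM (SD 8.59) in cerebellar Gad2 through 28.5 in SST, 27.1 in PV, 24.2 in cerebellar vGluT2 and 22 in cerebral vGluT2 to 18.3 (SD 4.15) in cerebral Gad2. Each of these neighbours overlapped. Cacna1d was higher in cerebellar than in cerebral Gad2 by 1.10 (SE 0.16, adjusted p 4.3e-07), lower in cerebellar vGluT2 than in cerebellar Gad2 by -0.72, and higher than in cerebral Gad2 in PV (0.59, adjusted p 0.00227) and SST (0.68).

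The R-type gene Cacna1e was highest in SST, where the 5 controls had 151, 207, 184, 237 and 266 CPM. Cerebral vGluT2 ranged from 137 to 229 around a median of 194, PV averaged 161 CPM, cerebellar vGluT2 122 and cerebral Gad2 121. Neighbouring groups of these overlapped, and all lay above cerebellar Gad2, at 34.8 CPM (SD 12.9). Cerebellar Gad2 was below cerebral Gad2 by -1.87 and below cerebellar vGluT2, which was higher by 1.85. SST exceeded cerebral Gad2 by 0.82 (SE 0.20, adjusted p 0.001). Cerebral vGluT2 exceeded it by 0.60, a call lost without control Gad2 replicate 6 (0.51, adjusted p 0.055). Cerebellar vGluT2 was below cerebral vGluT2 by -0.62 (adjusted p 0.00913). PV was called above cerebral Gad2 with size factors (0.48, adjusted p 0.0446), without the filter (0.49, adjusted p 0.048) and with only the 2 groups fitted (0.52, adjusted p 0.0155). The same call appeared without control Gad2 replicate 2 (0.53, 0.0266), 3 (0.49, 0.0484) or 5 (0.56, 0.028) and without control PV replicate 2 (0.50, 0.0479) or 6 (0.49, 0.0407).

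T-type channels open near the resting potential and drive burst firing. Of their genes, Cacna1g and Cacna1h had wide spans between groups. Cacna1g had 1109, 797, 939, 1403, 836 and 1027 CPM in the 6 control cerebellar Gad2 IPs, and the mean of 1018 (SD 221) was 22.8 times that of cerebral Gad2 (44.7, SD 15.2). The other groups overlapped at 76.4 CPM in cerebral vGluT2, 72.2 in cerebellar vGluT2, 70.1 in SST and 53.1 in PV. No library of another cell type came near the cerebellar Gad2 range. That IP exceeded cerebral Gad2 by 4.45 (SE 0.21, adjusted p 5.61e-19), and cerebellar vGluT2 lay below it by -3.78 (SE 0.22, adjusted p 1.74e-16). SST exceeded cerebral Gad2 by 0.69 and cerebral vGluT2 exceeded it by 0.73. PV was called above cerebral Gad2 without control Gad2 replicate 4 (0.46, adjusted p 0.0233) and below SST without control PV replicate 2 (-0.52, adjusted p 0.0422), the control PV IP with the highest Purkinje and granule cell markers.

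Cacna1h had the opposite placement, with 35.0, 49.9 and 64.4 CPM as lowest, median and highest cerebral Gad2 control. PV averaged 41.3, SST 37.5 and cerebral vGluT2 33.1 (SD 4.08), each overlapping its neighbour. Both cerebellar groups lay far below, at 2.72 CPM (SD 0.449) in Gad2 and 2.37 (SD 1.8) in vGluT2. Cerebellar Gad2 was below cerebral Gad2 by -4.25 (SE 0.25, adjusted p 1.78e-16) and cerebellar vGluT2 below cerebral vGluT2 by -3.77 (SE 0.26, adjusted p 1.52e-14). In the cerebrum vGluT2 was below Gad2 by -0.63, a call lost without control Gad2 replicate 4 (-0.55, adjusted p 0.061) or control vGluT2 replicate 6 (-0.56, adjusted p 0.0609). Cerebellar vGluT2 was called below cerebellar Gad2 without control vGluT2 replicate 5, the library with high Slc17a6 (-0.76, adjusted p 0.000406). Cacna1i was highest in cerebellar vGluT2 at 169 CPM (SD 37.0), above all libraries of PV (101, SD 10.6), SST (95.5), cerebral Gad2 (84.3) and cerebral vGluT2 (83.3). Those 4 groups overlapped and lay above cerebellar Gad2 (31.1, SD 5.89). Cerebellar vGluT2 exceeded cerebellar Gad2 by 2.48 (SE 0.15, adjusted p 1.48e-15) and cerebral vGluT2 by 1.03 (SE 0.15, adjusted p 2.58e-07), and cerebellar Gad2 was below cerebral Gad2 by -1.50. PV was called above cerebral Gad2 for Cacna1i with size factors (0.35, adjusted p 0.0397), without the filter (0.35, adjusted p 0.0433), with only the 2 groups fitted (0.38, adjusted p 0.0133), without control Gad2 replicate 4 (0.35, adjusted p 0.0449) and without control PV replicate 2 (0.39, adjusted p 0.0295).

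The α2δ genes were opposites of each other (r -0.86 across the 34 control IPs). Cacna2d1 was highest in cerebral vGluT2, from 61.7 to 310.3 CPM with a median of 229. It averaged 89.9 (SD 7.37) in cerebellar vGluT2, 86.4 in SST, 80.6 in cerebral Gad2 and 50.4 (SD 16.1) in PV, each overlapping its neighbour. The cerebellar Gad2 controls, with 4.31, 7.42, 9.98, 2.58, 17.3 and 7.00 CPM, lay below every other group. The differences were 1.41 for cerebral vGluT2 over Gad2 (SE 0.34, adjusted p 0.00162), -3.39 for cerebellar against cerebral Gad2 (SE 0.38, adjusted p 1.61e-09), 3.53 for cerebellar vGluT2 over Gad2 (SE 0.39, adjusted p 1.34e-09) and -1.28 for cerebellar against cerebral vGluT2 (SE 0.37, adjusted p 0.00277). Cacna2d2 was highest in cerebellar Gad2 at 486 CPM (SD 78.0, range 391 to 589) without overlap with any other group. Neighbouring groups among PV (165), cerebral Gad2 (161), cerebellar vGluT2 (111) and SST (107) overlapped, and cerebral vGluT2 was lowest at 26.5 (SD 3.83). Cerebellar Gad2 exceeded cerebral Gad2 by 1.53 (SE 0.14, adjusted p 1.9e-11) and cerebellar vGluT2 was below it by -2.09. Cerebellar vGluT2 exceeded cerebral vGluT2 by 2.09 (SE 0.15, adjusted p 2.26e-14), which itself lay below cerebral Gad2 by -2.65 (SE 0.15, adjusted p 4.1e-16). SST was below cerebral Gad2 by -0.55 and below PV, which was higher by 0.61 (SE 0.14, adjusted p 0.00339).

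Levels of different genes were compared per length, as CPM per kilobase of exon. T-type genes made up 71.2% (SD 2.21) of the summed α1 level of the 8 members in control cerebellar Gad2 IPs, P/Q-type 22.4%, L-type 2.83%, N-type 2.60% and R-type 0.993%. In the cerebellar vGluT2 IP, P/Q-type made up 40.5% (SD 3.43), T-type 34.5% (SD 4.25), N-type 10.4%, L-type 7.93% and R-type 6.68%. In the cerebrum T-type genes held 43.8% in Gad2, 37.7% in PV, 37.1% in SST and 39.6% in vGluT2, and P/Q-type 18.1%, 24.6%, 20% and 17.6%. N-type held 16.2%, 16.1%, 18.2% and 17.9% in the same order, R-type 11.8%, 12.2%, 15.1% and 15.3%, and L-type 10.2%, 9.45%, 9.66% and 9.49%. The most abundant α1 gene per length was Cacna1i in cerebral Gad2 (8.55 CPM per kilobase), Cacna1a in PV (12.9) and SST (11.3), Cacna1b in cerebral vGluT2 (8.78), Cacna1g in cerebellar Gad2 (100.5) and Cacna1a in cerebellar vGluT2 (28.9). In the cerebellum Cacna1a followed Cacna1g at 32.6 in Gad2, and Cacna1i followed Cacna1a at 17.2 in vGluT2. Among α2δ genes, Cacna2d2 held 74.5% in cerebellar Gad2, 59.4% in cerebellar vGluT2 and 60.0% in PV. Cacna2d3, outside the members, held 43.1% in cerebral Gad2 and 40.7% in SST, beside 42.4% and 38.0% for Cacna2d2, and in cerebral vGluT2 Cacna2d1 held 49.8% and Cacna2d3 39.1%.

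**Figure D2:**
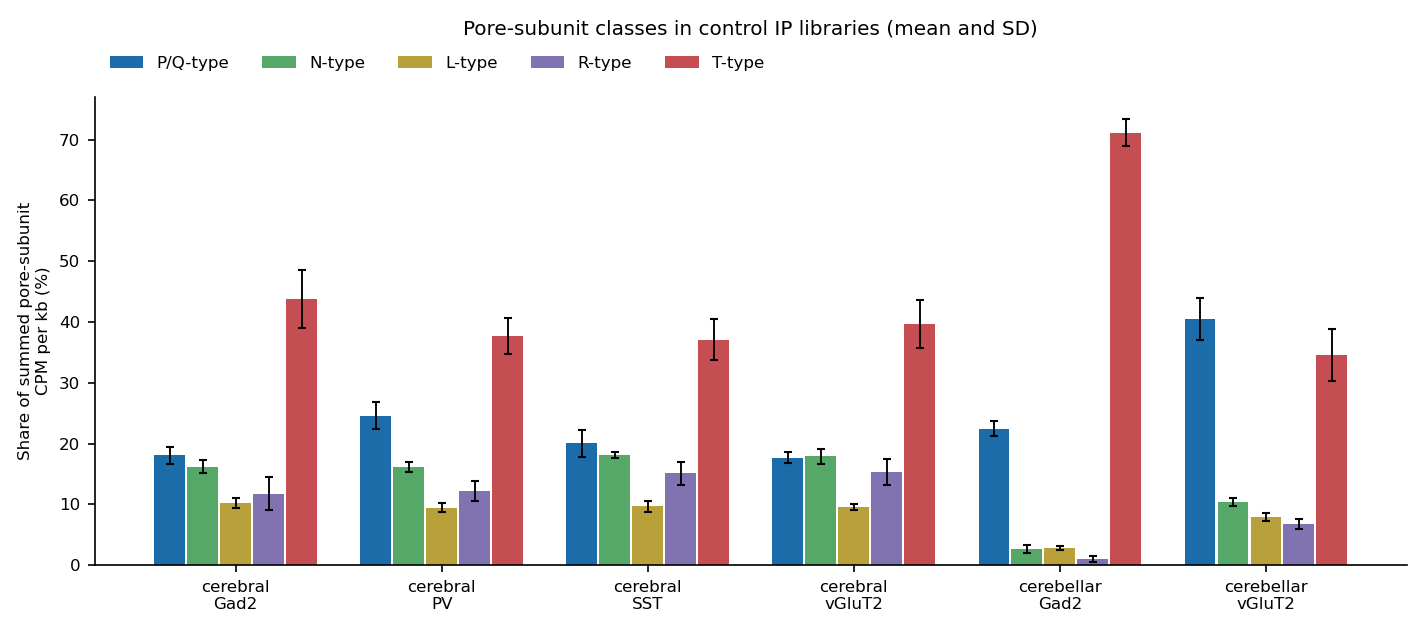
Share of each α1 current class in the summed CPM per kilobase of the members (percent, vertical axis) by cell type in control IPs, as mean with SD. T-type genes hold 71.2% in cerebellar Gad2 and 34.5% in cerebellar vGluT2, and P/Q-type genes 22.4% and 40.5%.

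Among the β subunit genes, Cacnb3 made up 42.0% of the summed level per length in cerebral Gad2, where Cacnb1 held 39.2%. Cacnb3 held 49.2% in PV, 53.2% in SST and 52.3% in cerebral vGluT2. In the cerebellum Cacnb4 was the most abundant, with 40.1% in Gad2 and 65.8% in vGluT2. Cacnb1 was lower in the cerebellum by -2.81 in Gad2 (SE 0.14, adjusted p 1.41e-18) and by -2.69 in vGluT2, and Cacnb3 by -1.14 and -2.48. Cacnb2 was higher in cerebellar than cerebral Gad2 by 0.61 but lower by -2.42 in vGluT2, and Cacnb4 was higher in cerebellar vGluT2 by 1.06, while its 0.46 in Gad2 was not called (adjusted p 0.0668). In vGluT2, Cacna2d3 (-2.51) and Cacna2d4 (-1.88) were lower in the cerebellum, and in Gad2 neither was called (-0.14 and 0.28). In cerebellar vGluT2 against Gad2, Cacna2d3 (-3.13), Cacnb2 (-3.05), Cacna2d4 (-1.46) and Cacnb3 (-0.40) were lower and Cacnb4 (1.09) and Cacnb1 (0.40) higher. Against cerebral Gad2, PV was lower for Cacnb1 (-1.81), Cacna2d3 (-1.13), Cacnb2 (-0.73) and Cacnb3 (-0.59), SST was lower for Cacnb1 (-1.25), Cacnb2 (-0.72) and Cacna2d3 (-0.48), and vGluT2 was higher for Cacnb3 (0.93) and lower for Cacna2d3 (-0.75). PV was below SST for Cacna2d3 (-0.65), Cacnb1 (-0.56) and Cacnb3 (-0.55).

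IP and total RNA were compared to see which members were richer in the tagged cells than in the whole tissue. In the cerebral Gad2 IP, 1 member was higher (Cacna2d2, 1.02, SE 0.07, adjusted p 7.12e-14) and 1 lower (Cacna1g, -0.66, SE 0.13, adjusted p 4.27e-05), where 30.9% of tested genes were called higher and 32.7% lower. With mouse as a block Cacna1a was also called lower there (-0.30, adjusted p 0.0222). The PV IP had 6 members higher and none lower, against 35.7% and 37.5% of tested genes. These were Cacna1a (0.68), Cacna1b (0.50), Cacna1c (0.38), Cacna1d (0.73), Cacna1e (1.15, SE 0.24, adjusted p 0.000105) and Cacna2d2 (1.17, SE 0.07, adjusted p 2.3e-14). The SST IP had 6 higher and 1 lower, against 33.9% and 35.7%. The higher ones were Cacna1a, Cacna1b (0.76), Cacna1c (0.54), Cacna1d (0.85), Cacna1e (1.67, SE 0.23, adjusted p 1.87e-07) and Cacna2d2 (0.37), and Cacna1h was lower (-0.27). In SST, Cacna1h lost its call against total RNA of the SST line alone (-0.18, adjusted p 0.26) and with mouse as a block (-0.28, adjusted p 0.0644). With the block, Cacna2d2 lost its call as well (0.21, adjusted p 0.186) and Cacna2d1 was called higher (1.13, adjusted p 0.000202).

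The cerebral vGluT2 IP had 4 members higher and 3 lower than total RNA, against 30% and 33.6% of tested genes. Cacna1b (0.31), Cacna1c (0.28), Cacna1e (1.15) and Cacna2d1 (1.29, SE 0.36, adjusted p 0.00274) were higher, and Cacna1h (-0.75), Cacna1i (-0.40) and Cacna2d2 (-1.69, SE 0.11, adjusted p 1.45e-14) lower. The calls of Cacna1b and Cacna1c were lost against total RNA of the same line (0.17, adjusted p 0.134, and 0.11, adjusted p 0.395) and with mouse as a block (0.22, adjusted p 0.229, and 0.16, adjusted p 0.427), and Cacna1a was then called lower (-0.31, adjusted p 0.0173, and -0.39, adjusted p 0.0413). The cerebellar Gad2 IP had 4 higher and 4 lower, against 34.7% and 32.6% of tested genes. Cacna1g (1.37, SE 0.10, adjusted p 2.07e-12), Cacna2d2 (1.31, SE 0.08, adjusted p 6.27e-14), Cacna1d (0.71) and Cacna1a (0.42) were higher. Cacna1i (-1.93, SE 0.10, adjusted p 6.08e-16), Cacna2d1 (-1.73, SE 0.33, adjusted p 3.73e-05), Cacna1c (-1.28) and Cacna1h (-0.87) were lower. Against total RNA of the same line, Cacna1a lost its call (0.20, adjusted p 0.116), and Cacna1b (-0.31, adjusted p 0.0442) and Cacna1e (-0.61, adjusted p 0.0482) were called lower. The cerebellar vGluT2 IP had 5 higher and 3 lower, against 32.3% and 36%. Cacna1e and Cacna2d1 (each 1.38), Cacna1b (0.91), Cacna1c (0.84) and Cacna1i (0.43) were higher, and Cacna1g (-2.26, SE 0.10, adjusted p 9.46e-17), Cacna1h (-1.66) and Cacna2d2 (-1.0) lower. Cacna1a was called higher there without the filter (0.28, adjusted p 0.0145), against the same line (0.36, adjusted p 0.012) and with mouse as a block (0.38, adjusted p 0.0208). The cerebellar reference held total RNA of both genotypes, including the HD libraries of the vGluT2 line with a low length index. Cacna2d1 averaged 30.4 CPM in that reference and 38.6 in its controls, and Cacna1e 53.4 and 62.0. The part of these HD libraries in the cerebellar calls was not tested.

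Genes whose level followed a member across the 34 control IPs were ranked by Pearson's r on log2(CPM + 1), over 13146 protein-coding genes, with cell type as the main source of spread. For Cacna1a they were Astn2 (r 0.953) and Iffo2 (0.952), for Cacna1b Cacna1e (0.966) and Add2 (0.927), and for Cacna1c Nedd4l (0.938) and Lrrc4 (0.93). Cacna1d was followed by Ank2 (0.889) and Ksr2 (0.882), Cacna1e by Grin2a (0.982) and Cacna1b (0.966), and Cacna1g by Garnl3 (0.991) and Car7 (0.978). Cacna1h paired with Pde8b (0.988) and Rtkn (0.986), Cacna1i with Lrrc4 (0.947) and Jph3 (0.932), Cacna2d1 with Fam13c (0.967), and Cacna2d2 with Arl4c (0.968) and Dusp10 (0.968). The closest other member was Cacna1d for Cacna1a (0.723) and for Cacna1g (0.735), Cacna1i for Cacna1c (0.922), Cacna1e for Cacna1h (0.66) and for Cacna2d1 (0.851), and Cacna1g for Cacna2d2 (0.598). The lowest value between members was -0.87, for Cacna1a and Cacna1h.

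Annotated RefSeq promoter windows of 300 bases on GRCm38.p6, 32851 in all, covered 7 of the 10 members, with none for Cacna1a, Cacna1g or Cacna1h. The pair with the most alike levels, Cacna1b and Cacna1e, is shown. The Cacna1b window (chr2:24763103-24763402, minus strand) has a GC content of 72.3%, 3 GGGCGG motifs and 1 CCAAT motif on the other strand, in capitals. The Cacna1e window (chr1:154725871-154726170, minus strand) lies inside the GENCODE gene, has a GC content of 55.3% and holds none of the 5 motifs searched. The median GC content of all windows was 52.7%. On both strands together, TATAAA was found in 13.6% of all windows, CCAAT in 37.4%, GGGCGG in 35.7%, TGACGTCA in 1.79% and CACGTG in 7.15%.

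Cacna1b: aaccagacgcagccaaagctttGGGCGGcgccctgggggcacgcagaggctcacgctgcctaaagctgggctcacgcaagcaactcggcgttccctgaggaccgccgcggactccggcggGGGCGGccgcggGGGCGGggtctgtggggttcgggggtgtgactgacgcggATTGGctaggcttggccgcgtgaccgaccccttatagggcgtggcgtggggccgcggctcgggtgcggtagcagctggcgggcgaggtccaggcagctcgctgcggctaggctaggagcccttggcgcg

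Cacna1e: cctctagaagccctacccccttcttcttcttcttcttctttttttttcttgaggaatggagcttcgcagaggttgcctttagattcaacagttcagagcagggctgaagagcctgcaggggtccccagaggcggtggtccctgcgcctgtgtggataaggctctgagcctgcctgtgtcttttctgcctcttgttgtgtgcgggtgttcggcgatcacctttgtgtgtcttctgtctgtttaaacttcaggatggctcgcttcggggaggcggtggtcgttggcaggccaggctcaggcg

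The effect of the HD allele was then tested in each cell type. No member was called in any of the 6 IP comparisons by edgeR, where the 60 log2 changes ran from -0.57 to 0.53 and the lowest adjusted p was 0.0954. In the cerebral Gad2 IP 0 members were called and 1 had an unadjusted p under 0.05, beside 0 by DESeq2, with 0.0279% of tested genes called (4 of 14342, 1313 at an unadjusted p under 0.05). That member was Cacna1e, which ranged from 84.8 to 161 CPM (median 122) in controls and from 55.4 to 126 (median 84.6) in HD mice. The ranges overlapped and 5 of 6 HD mice lay below the control mean (-0.55, SE 0.22, p 0.0258, adjusted p 0.536). With the length index as a covariate, chosen after seeing the data, it stood at -0.24 (SE 0.0972, p 0.027, adjusted p 0.855). In the PV IP 0 members were called, 0 had an unadjusted p under 0.05 and DESeq2 called 0, with 0.034% of genes called (5 of 14713) and member changes from -0.29 to 0.51. The 0.51 (SE 0.44) was that of Cacna1g and rested on HD PV replicate 3. Without that library Cacna1g stood at -0.37 (SE 0.19, p 0.0826, adjusted p 1.0). In the SST IP 0 members were called, 0 had an unadjusted p under 0.05 and DESeq2 called 0, with 0% of genes called (0 of 14689, 207 at an unadjusted p under 0.05 and 2 by DESeq2). Member changes there ran from -0.30 to -0.05.

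In the cerebral vGluT2 IP 0 members were called, 0 had an unadjusted p under 0.05 and DESeq2 called 0, with 0.00697% of tested genes called (1 of 14354). Changes ran from -0.57 to 0.13, with 9 of 10 below 0 and adjusted p from 0.687 to 0.955. The lowest change was that of Cacna2d1, which ranged from 61.7 to 310.3 CPM (median 229) in controls and from 67.8 to 199 (median 170.5) in HD mice. All 6 HD mice lay below the control mean of 222 CPM, but the ranges overlapped. It changed sign with the length index as a covariate, chosen after seeing the data (0.13, SE 0.18, adjusted p 0.999). Without the re-sequenced library Cacna1h moved from -0.26 to -0.10 and Cacna2d2 from -0.04 to 0.11, with neither called. In the cerebellar Gad2 IP 0 members were called, 0 had an unadjusted p under 0.05 and DESeq2 called 0, with 0.0142% of tested genes called (2 of 14098) and changes from -0.16 to 0.43. Without control replicate 5, Cacna1e moved from 0.43 to 0.65 and Cacna2d1 from 0.23 to 0.61, with neither called. The gene count was 3 without HD replicate 4 and 0 without any other single library, the re-sequenced library included.

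In the cerebellar vGluT2 IP edgeR called 285 of 13487 genes, 124 higher and 161 lower in HD (2.11%), and 0 members. At an unadjusted p under 0.05 stood 4 members and 2090 genes, and DESeq2 called 1 member. The count of called genes was 665 by DESeq2, 108 with the replicate number as a block, although pairing by number was not found in this group, and 149 to 255 with a library left out. It was over 1.5 times lower without control replicate 1 (149), 2 (173), 3 (169) or 4 (188) and without HD replicate 1 (152) or 5 (173). The member nearest to the threshold was Cacna1g, with 78.0, 72.3, 75.2, 68.3 and 67.0 CPM in the 5 controls and a median of 99.2 (range 72.5 to 114) in the 6 HD mice. All 6 HD mice lay above the control mean, with overlap by HD replicate 2 (0.43, SE 0.12, p 0.00356, adjusted p 0.0954). Without that library Cacna1g was called (0.50, adjusted p 0.0418), and DESeq2 called it with all libraries (0.42, adjusted p 0.0278). Cacna1e ranged from 84.4 to 177 CPM (median 112) in controls and from 134 to 223 (median 172) in HD mice, all 6 of which lay above the control mean (0.53, SE 0.18, p 0.00988, adjusted p 0.162). Cacna1b (0.35, SE 0.14, p 0.0259, adjusted p 0.25) and Cacna1d (0.35, SE 0.13, p 0.0142, adjusted p 0.194) each had 5 of 6 HD mice above the control mean. With the length index as a covariate, an alternative chosen after seeing the data, Cacna1e (0.50, adjusted p 0.0203) and Cacna1g (0.44, adjusted p 0.0362) were called. Member changes ran from -0.55 to 0.53, with 7 above 0 and 3 below. The median change of the members was 0.20, against -0.01 for all tested genes.

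Marker genes moved in the same IP. Of the 6 granule cell markers 2 were called lower (Cbln3 and Neurod1) and 6 had an unadjusted p under 0.05. Their summed level was 10679, 10414, 10646, 10613 and 7934 CPM in the 5 controls and 6964, 6168, 7582, 5666, 6637 and 5090.1 CPM in the 6 HD mice, without overlap, Cbln3 was the most abundant and no marker of this list was at 0. Ppp1r1b was the only other marker called, lower in HD. Their part in the result was not tested.

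**Figure D3:**
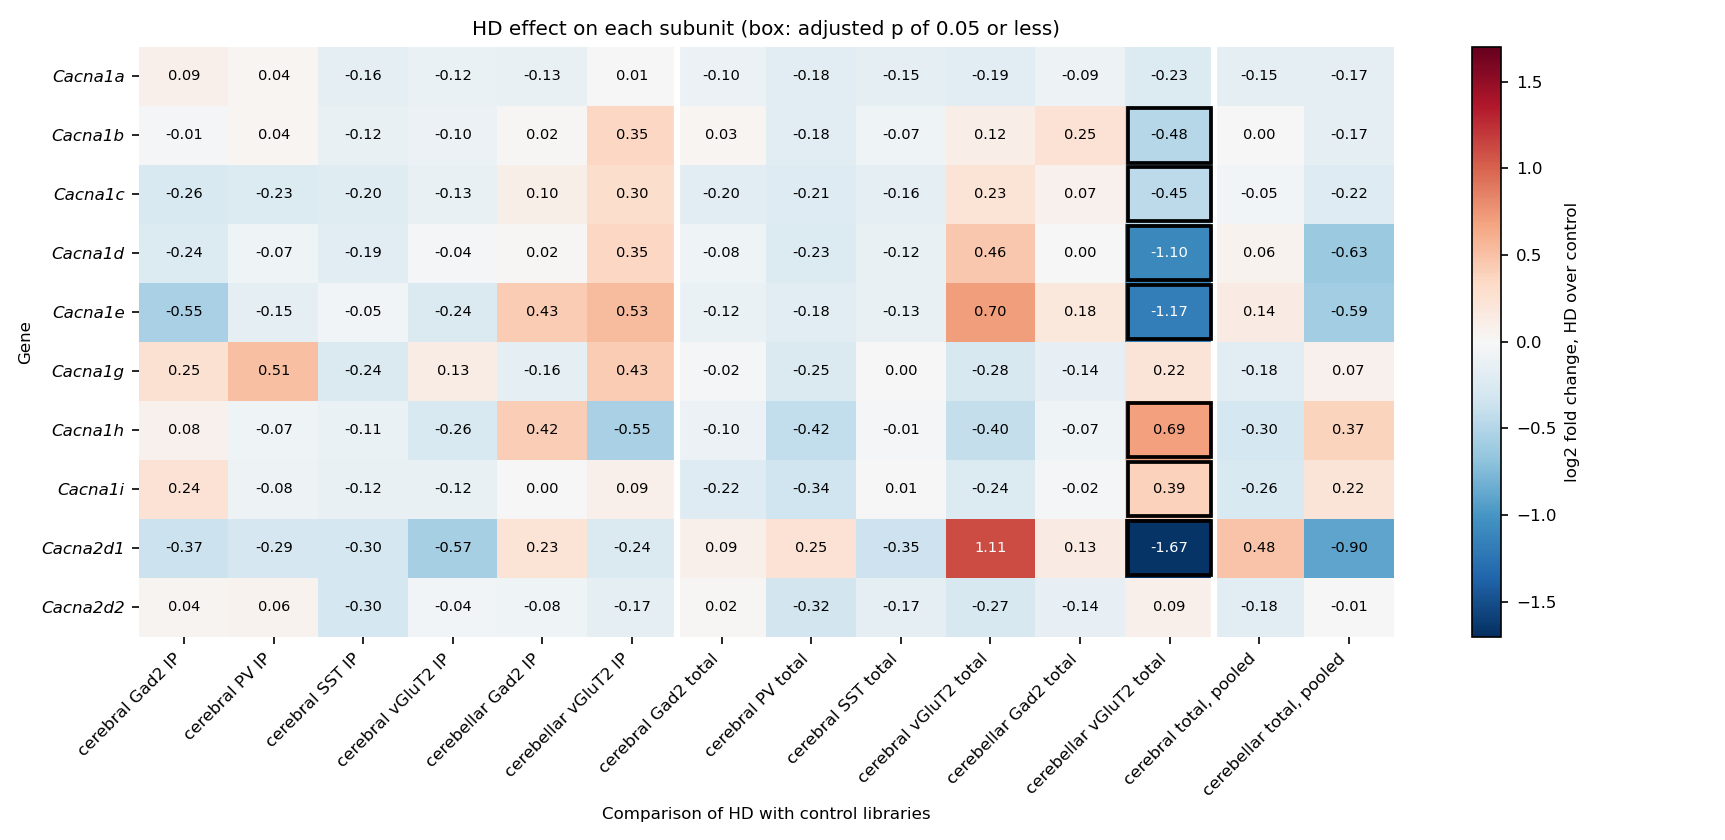
HD effect on each member (log2 of HD over control, color scale) with the comparison on the horizontal axis and the gene on the vertical axis, a box marking an adjusted p of 0.05 or less. IP values lie between -0.57 and 0.53 with no box, while 7 members carry a box in total RNA of the cerebellar vGluT2 line.

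Differences of the HD effect between cell types were tested as interactions. The comparison of cerebellar vGluT2 with cerebellar Gad2 called 0 members by edgeR and 0 by DESeq2, with 1 member at an unadjusted p under 0.05, where 0.107% of genes were called (15 of 13971, 989 at an unadjusted p under 0.05). That member was Cacna1g (0.55, SE 0.19, p 0.00628, adjusted p 0.439). Cerebellar against cerebral Gad2 called 0 members, with 1 at an unadjusted p under 0.05 (Cacna1e, 0.97, SE 0.36, p 0.0116, adjusted p 0.833) and 0 by DESeq2, where 0% of genes were called (0 of 14472, 777 at an unadjusted p under 0.05 and 21 by DESeq2). Cerebellar against cerebral vGluT2 called 0 members, with 4 at an unadjusted p under 0.05 and 0 by DESeq2, where 0.323% of genes were called (46 of 14253, 1062 at an unadjusted p under 0.05). The 4 were Cacna1e (0.80, SE 0.23, p 0.00213, adjusted p 0.208), Cacna1b (0.48, p 0.00797), Cacna1c (0.45, p 0.0105) and Cacna1d (0.41, p 0.049). Cerebral vGluT2 against cerebral Gad2 called 0 members, with 0 at an unadjusted p under 0.05 and 0 by DESeq2, where 0% of genes were called (0 of 14477, 209 at an unadjusted p under 0.05 and 0 by DESeq2). The cerebellar and cerebral Gad2 IPs came from the same 6 control and 6 HD mice. For vGluT2, 5 control and 6 HD mice gave both regions. These fits did not use that pairing. With the mouse as a block over mice with both regions, chosen after seeing the data, edgeR called 0 members and 0 genes for Gad2 (6 control and 6 HD mice) and 0 members and 31 of 14264 genes for vGluT2 (5 and 6 mice). For vGluT2 the lowest adjusted p of a member was then 0.0935, for Cacna1e (0.81, SE 0.17, p 0.000393), and 5 members had an unadjusted p under 0.05: Cacna1e, Cacna1b (0.50, p 0.00129), Cacna1c (0.48, p 0.00214), Cacna1d (0.50, p 0.0141) and Cacna1g (0.33, p 0.0202). For Gad2 1 member did, Cacna1e (p 0.00601, adjusted p 0.701).

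Total RNA was tested by line to see whether the tissue as a whole differed. In total RNA of the cerebral Gad2, PV, SST and vGluT2 lines and of the cerebellar Gad2 line, edgeR called 0 members and 0% of genes each. The cerebral Gad2 line had 86 of 15045 genes and 0 members at an unadjusted p under 0.05, DESeq2 called 1 gene and 0 members, and member changes ran from -0.22 to 0.09. In that group alone, every shared replicate number correlated above 0.1 between genotypes (r 0.597 to 0.971 over 3 numbers). That does not show that mice were paired. By number, the length index was 0.782, -0.132 and -0.631 in controls and 0.868, -0.21 and -0.612 in HD mice. With the replicate as a block 24 genes and 0 members were called. The PV line had 218 of 14670 genes and 0 members at an unadjusted p under 0.05, DESeq2 called 3 genes and 0 members, and changes ran from -0.42 to 0.25. The SST line had 381 of 14878 genes and 0 members, DESeq2 called 15 genes and 0 members, and changes ran from -0.35 to 0.01. The cerebral vGluT2 line had 1055 of 14843 genes and 1 member at an unadjusted p under 0.05, and DESeq2 called 19 genes and 0 members. That member was Cacna1h, with 68.3, 63.4 and 51.3 CPM in controls and 41.5, 46.3 and 43.5 in HD mice, all 3 below the lowest control (-0.40, SE 0.14, p 0.0247, adjusted p 0.502). The largest change there was 1.11 for Cacna2d1 (SE 0.65, p 0.126). The length index had a median of -0.39 in these controls and 0.44 in these HD mice, and with it as a covariate, chosen after seeing the data, Cacna2d1 changed sign to -0.29 (SE 0.42, adjusted p 0.922). The cerebellar Gad2 line had 316 of 14226 genes and 0 members at an unadjusted p under 0.05, DESeq2 called 17 genes and 0 members, and changes ran from -0.14 to 0.25.

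In total RNA of the cerebellar vGluT2 line, 7565 of 14630 genes were called, 24.4% of those tested higher and 27.3% lower in HD, and 7 members, 2 higher and 5 lower. The median change was -0.34 for the members and 0.00 for all tested genes. Protein-coding genes held 93.46% to 96.17% of the counts in the 4 controls and 90.88% to 93.0% in the 4 HD mice, without overlap. The part of this share in the calls was not tested. Cacna2d1 had 53.8, 45, 25.3 and 61.4 CPM in the 4 controls and 12.8, 22.4, 10.6 and 18.5 in the 4 HD mice, without overlap (-1.67, SE 0.31, adjusted p 0.00178). Cacna1e had 74.1, 74.2, 64.0 and 58 CPM in controls and 50.0, 23.9, 22.8 and 33.5 in HD mice, without overlap (-1.17, SE 0.25, adjusted p 0.0032). Cacna1d had 33.7, 36.7, 30.3 and 26.6 CPM in controls and 24.5, 12.8, 11.7 and 15.4 in HD mice, without overlap (-1.10, SE 0.24, adjusted p 0.00343). These 3 members were lower in 4 of 4 HD mice and were called in all 8 fits that left out a library. Cacna1b (-0.48, SE 0.15, adjusted p 0.0185) and Cacna1c (-0.45, SE 0.16, adjusted p 0.039) were below the control mean in 4 of 4 HD mice with overlapping ranges. Cacna1h (0.69, SE 0.22, adjusted p 0.0251) was above the control mean in 4 of 4 with overlap. Cacna1i had 107, 104, 105 and 72.7 CPM in controls and 138, 138, 127 and 150.1 in HD mice, without overlap (0.39, SE 0.14, adjusted p 0.0354). Cacna1a (-0.23, adjusted p 0.169), Cacna1g (0.22, adjusted p 0.176) and Cacna2d2 (0.09, adjusted p 0.684) were not called.

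Single libraries decided 4 of these 7 calls. The call of Cacna1c in total RNA of the cerebellar vGluT2 line was lost without control replicate 1 (-0.40, adjusted p 0.113), 2 (-0.46, 0.0644) or 3 (-0.44, 0.0538) or HD replicate 2 (-0.35, 0.1) or 3 (-0.39, 0.0995). The call of Cacna1h was lost without control replicate 1 (0.64, 0.064), 2 (0.61, 0.0706) or 3 (0.61, 0.0568) or HD replicate 1 (0.62, 0.0511) or 3 (0.65, 0.0597). The call of Cacna1i was lost without control replicate 2 (0.40, 0.0692), 3 (0.39, 0.0608) or 4 (0.29, 0.0839) or HD replicate 2 (0.39, 0.0662) or 4 (0.34, 0.0873), and that of Cacna1b without HD replicate 2 (-0.40, 0.0525). With the replicate number as a block, Cacna1i (adjusted p 0.0601) and Cacna1c (0.0526) were not called, although pairing by number was not found in this group. The length index did not overlap between the genotypes here, nor did the protein-coding share, so their effects and that of HD cannot be told apart. With the index as a covariate, chosen after seeing the data, edgeR called 0 genes and 0 members, and Cacna1e (0.29, adjusted p 0.944), Cacna1d (0.12, 0.978), Cacna2d1 (0.55, 0.911) and Cacna1c (0.01, 0.998) changed sign. Cacna1b (-0.22, 0.938), Cacna1h (0.84, 0.831) and Cacna1i (0.59, 0.798) kept their sign.

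**Figure D4:**
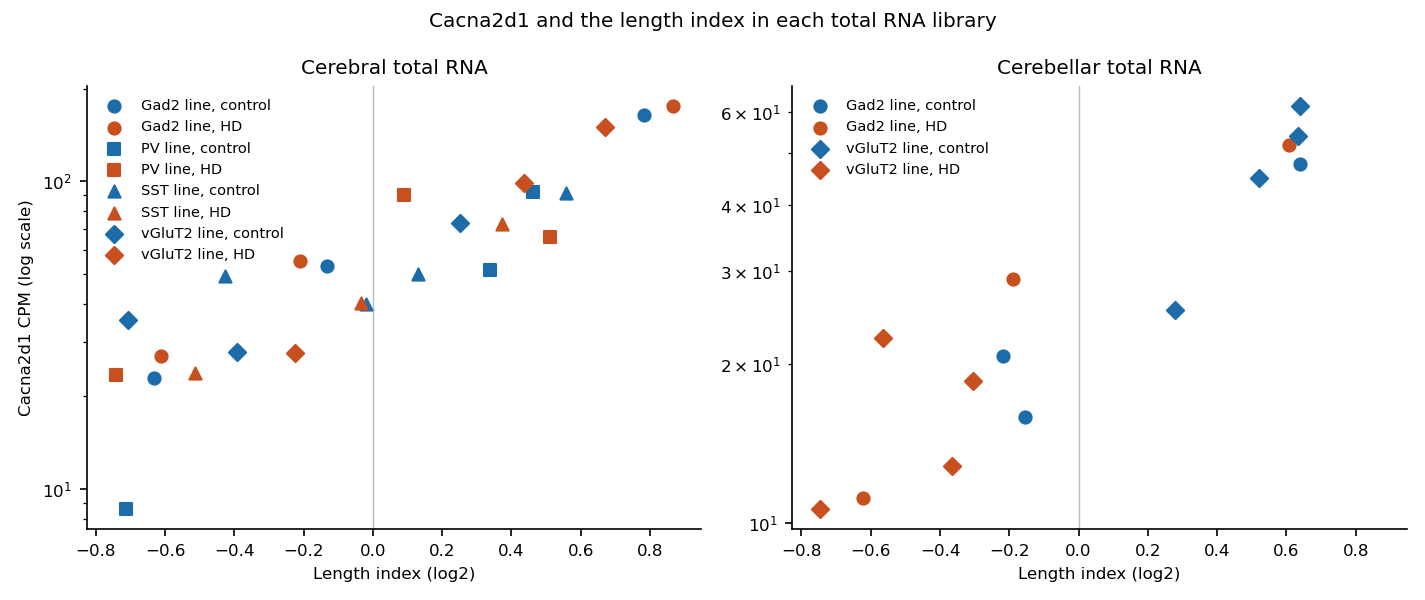
Cacna2d1 level (CPM, log axis) against the index of long over short transcripts (log2, horizontal axis), a point for each total RNA library, by region, line and genotype. The 4 control libraries of the cerebellar vGluT2 line lie at an index of 0.277 and above and the 4 HD libraries at -0.304 and below.

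Cell type markers moved in the same total RNA, where 24.4% of tested genes were called higher and 27.3% lower. With the length index as a covariate, chosen after seeing the data, no gene was called there. Of the 6 granule cell markers 3 were lower (Cbln3, Etv1 and Gabra6), and their summed level was 5407, 4162, 3812 and 3905 CPM in controls and 2559, 3346, 2669 and 4102 in HD mice, Cbln3 being the most abundant. Of the 5 Purkinje markers 2 were lower (Calb1 and Car8), with sums of 2518, 2634, 2422 and 2722 in controls and 1565, 2223, 2052 and 2234 in HD mice, Car8 being the most abundant. Of the 5 microglial markers 3 were higher (C1qa, Csf1r and Tmem119), with sums of 80.8, 73.5, 85.9 and 81.9 in controls and 143, 131, 141 and 129 in HD mice. Slc17a7 was higher by 0.98 and Slc17a6 lower by -1.98, from 10.8, 9.46, 6.46 and 61.3 CPM in controls to 2.12, 7.42, 10.8 and 4.86 in HD mice. That of Slc17a6 was carried by control replicate 4, without which it was -0.63 and not called (adjusted p 0.27). Its call was lost in 4 of 8 fits that left out a library, as was that of Car8, and that of Mog (below) in 5 of 8. Of the 3 PV markers 2 were higher, of the 5 markers of other cerebellar GABAergic neurons 3 were lower, and of the 8 striatal markers 3 were higher. Of the oligodendrocyte markers 3 were higher (Cnp, Mag and Mog), and of the 4 thalamic markers 2 were lower. The GABAergic list had 1 higher and 2 lower, astrocytes 1 and 2 of 6, endothelial cells 2 and 1 of 5, and oligodendrocyte precursors 1 and 1 of 2, while 0 of 2 SST markers were called. No granule cell, Purkinje or microglial marker was at 0. Their part in the result was not tested.

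Lines were also pooled by region, the cerebral pool holding the Gad2, PV and vGluT2 lines without SST. In cerebral total RNA 0 members were called by edgeR and 0 by DESeq2, with 0.141% of tested genes called (21 of 14871, and 96 with the SST line added). At an unadjusted p under 0.05 stood 984 genes and 3 members. The 3 were Cacna1i (-0.26, p 0.0103), Cacna1h (-0.30, p 0.0208) and Cacna2d2 (-0.18, p 0.0359), none with an adjusted p below 0.448. They were refitted by edgeR with the length index as a covariate, chosen after seeing the data. Cacna1h then stood at -0.25 (adjusted p 0.0914), Cacna1i at -0.24 (adjusted p 0.114) and Cacna2d2 at -0.16 (adjusted p 0.195), none called. In cerebellar total RNA edgeR called 0 members and DESeq2 called 1, with 1 member and 6423 genes at an unadjusted p under 0.05, where 24.5% of genes were called (3544 of 14477). The count of called genes was 9 with the replicate number as a block, although pairing by number was not found in either cerebellar line, and 86 with the length index as a covariate, chosen after seeing the data. The Gad2 line alone gave 0. That member was Cacna1d (-0.63, SE 0.23, adjusted p 0.0589), for which DESeq2 gave an adjusted p of 0.0271. Member changes in the cerebellum ran from -0.90 to 0.37.

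Other genes of calcium handling were read in the same comparisons, from lists of other α1 and α2δ subunits, β and γ subunits, release-site proteins, channel regulators, calcium-activated potassium channels, and calcium pumps, exchangers and release channels. In the cerebellar vGluT2 IP 3 of 50 tested were called, against 2.11% of all tested genes. Atp2b4, a plasma membrane calcium pump, was higher by 0.93 (SE 0.15, adjusted p 0.00541) and ranged from 21.7 to 39.8 CPM in controls and from 54.1 to 64.1 in HD mice. Stac2, an adaptor of L-type channels, was lower by -0.85 (SE 0.14, adjusted p 0.00678), from 72.5 to 121 CPM in controls and from 46.4 to 59.5 in HD mice. Slc8a3, a sodium-calcium exchanger, was higher by 0.66 (SE 0.11, adjusted p 0.00786), from 47.9 to 59.6 CPM in controls and from 68.5 to 102 in HD mice. These genes were named because they were called, so the distance between their ranges is no further evidence. The effect on Atp2b4 differed between cerebellar and cerebral vGluT2 by 1.15 (SE 0.18, adjusted p 0.00244).

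In total RNA of the cerebellar vGluT2 line 29 of 53 were called, 10 higher and 19 lower, a share near that of all tested genes (24.4% higher and 27.3% lower). HD and the length index cannot be told apart there, and with the index as a covariate 0 genes were called. These were 4 of 4 β subunits (Cacnb1 and Cacnb3 higher, Cacnb2 and Cacnb4 lower), 4 of 6 γ subunits (3 higher, 1 lower), 6 of 10 release-site genes (2 higher, 4 lower), 3 of 9 regulators (2 higher, 1 lower), 3 of 5 calcium-activated potassium channels (all lower), 9 of 16 pumps, exchangers and release channels (1 higher, 8 lower), and none of the other α1 and α2δ subunits. The largest changes were in the ryanodine receptors Ryr3 and Ryr2, the β subunit gene Cacnb4, the large-conductance potassium channel gene Kcnma1 and the release-site gene Pclo. Their values were Ryr3 (-2.33, SE 0.56, adjusted p 0.00616), Cacnb4 (-2.32, SE 0.23, adjusted p 0.000104), Kcnma1 (-1.99, SE 0.23, adjusted p 0.000176), Pclo (-1.8, SE 0.26, adjusted p 0.000451) and Ryr2 (-1.59, SE 0.32, adjusted p 0.00236). Cacnb4 spanned 210 to 375 CPM in the 4 controls and 44.6 to 76.8 in the 4 HD mice, without overlap. In pooled cerebellar total RNA 21 of 53 were called, against 24.5% of all tested genes, in the fit that fell to 9 genes with the block and 86 with the length index. Of the 21, 9 were higher and 12 lower: 4 β subunits (2 and 2), 4 γ subunits (3 and 1), 4 release-site genes (1 and 3), 1 regulator (higher), 3 potassium channels (all lower) and 5 pumps, exchangers and release channels (2 and 3). The largest were Cacnb4 (-1.51, SE 0.44, adjusted p 0.034), Kcnma1 (-1.35, SE 0.33, adjusted p 0.028), Cacnb2 (-0.95, SE 0.21, adjusted p 0.0271), Rims1 (-0.94, SE 0.23, adjusted p 0.028) and Itpr1 (-0.93, SE 0.25, adjusted p 0.0297). In the other 5 IP comparisons and the other line and pooled totals edgeR called 0 of 52 to 55 listed genes, with between 0 and 12 at an unadjusted p under 0.05.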

How the data were processed

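RNA of RiboTag IPs and of whole homogenate was sequenced in 106 libraries. The deposited values are estimated counts per gene, which the authors obtained by running the nf-core/rnaseq workflow (STAR, then Salmon), and 8.57% of them are not whole. They were rounded to whole counts, and the 92 ERCC spike-in controls (at most 4.45% of a library) were set aside. The members and all gene lists were chosen with earlier results of these data known.

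Protein-coding genes with a mean count above 10 over the libraries of a fit were tested with edgeR 4.0.16 (quasi-likelihood F test, TMM factors) in R 4.3.3, with limma 3.58.1 as its base. P-values were adjusted over all genes tested (Benjamini-Hochberg), and an adjusted p of at most 0.05 is called. IPs of both genotypes were compared with total RNA of the region from the Gad2, PV and vGluT2 lines (with the SST line added for SST), genotype being a covariate. Cerebral total RNA was pooled over the same 3 lines. Levels were compared between the 6 control IP groups in 1 fit, and interactions as differences of HD effects. There were 31 comparisons. CPM used TMM factors over all 106 libraries, and per-kilobase levels used exon lengths of GENCODE M21, which matched 55141 of the 55401 mouse genes.

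Other settings tried were a DESeq2 1.42.0 fit, its size factors within edgeR, no filter beyond 1 count, a replicate or mouse block, other sets of libraries and leaving out each library. Pairing by replicate number was checked by correlating deviations from the group mean (log2) of the control and HD libraries that share a number. Every shared number correlated above 0.1 in cerebral Gad2 line total RNA alone, which does not show that mice were paired. The length index compared the longest class (over 8144 exonic bases) with the shortest (up to 2736) in 5 equal classes of 11150 protein-coding genes with a mean of at least 5 CPM, and was added as a covariate after seeing the data, as was a mouse block in the interactions of region and genotype.

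All 10 members were read in every comparison, and the text on HD gives their counts, mostly with their range, and names those with a call, an unadjusted p under 0.05 in edgeR or a value that a single library decided. In HD comparisons the other listed channel and calcium genes are named when called, or the 5 largest where more were called. The β and α2δ genes are named for levels, as are up to 2 of the genes most correlated with each member among protein-coding genes with a mean of at least 1 CPM, and its closest other member. The fitting steps were tested on simulated data. Promoter windows came from RefSeq (GRCm38.p6). Tables were made in Python 3.11.15 with pandas 2.3.3 and numpy 2.4.6, and figures with matplotlib 3.10.9.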

Additional observations from a re-analysis of the deposited data

Results flagged for a closer look

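The values of each member in each group of 4 or more libraries made 150 sets. In 10 of them the highest or lowest value stood far from the rest. Chance marks about 1 in 20 sets. Cacna1g was 212 CPM in HD PV IP replicate 3, against 37.9 to 47.9 in the other HD PV IPs. Cacna1h was 5.55 CPM in control cerebellar vGluT2 IP replicate 5, against 1.22 to 1.90 in the others. It was 3.23 CPM in HD cerebellar vGluT2 IP replicate 5, against 1.04 to 1.63. It was 6.19 CPM in control cerebellar vGluT2 line total RNA replicate 4, against 3.70 to 4.01. It was 54.7 CPM in control PV IP replicate 6, against 36.8 to 41.0. Cacna1i was 72.7 CPM in control cerebellar vGluT2 line total RNA replicate 4, against 104 to 107. It was 97.8 CPM in HD cerebral vGluT2 IP replicate 1, against 67.4 to 77.3. Cacna1b was 37.1 CPM in control SST line total RNA replicate 1, against 61.2 to 64.5. Cacna1d was 23.8 CPM in HD cerebellar vGluT2 IP replicate 2, against 30.2 to 33.3. Cacna2d1 was 1.90 CPM in HD cerebellar Gad2 IP replicate 4, against 9.35 to 12.4.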

How the results depend on the processing

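Over the settings other than leaving out a library, 1187 of 1220 member values stayed on their side of the threshold with no called value reversed, 14 lost and 19 gained a call. Among those 1187, 38 uncalled values changed sign. With each library left out, 1816 of 1860 stayed, 31 lost and 13 gained a call, and 115 uncalled values among those that stayed changed sign. With the length index, chosen after seeing the data, 131 of 140 stayed, 3 lost and 2 gained a call and 4 called values reversed, while 23 uncalled values among those that stayed changed sign. With the mouse block in interactions, also chosen after seeing the data, 20 of 20 stayed and 1 uncalled value changed sign, and 31 genes were called for cerebellar minus cerebral vGluT2. The causes of the changes below were not tested.

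DESeq2 called 75 genes in the cerebral Gad2 IP, 42 in PV, 2 in SST, 25 in cerebral vGluT2, 22 in cerebellar Gad2 and 665 in cerebellar vGluT2, where it called 1 member. In line total RNA it called 1 gene in cerebral Gad2, 3 in PV, 15 in SST, 19 in cerebral vGluT2 and 17 in cerebellar Gad2, and 119 in pooled cerebral total RNA. It called 1 member in pooled cerebellar total RNA. For interactions it called 73 genes (cerebellar vGluT2 minus Gad2), 21 (cerebellar minus cerebral Gad2) and 126 (cerebellar minus cerebral vGluT2). With the replicate block, edgeR called 9 genes in the cerebral Gad2 IP, 0 in PV, 1 in SST, 0 in cerebral vGluT2, 0 in cerebellar Gad2 and 108 in cerebellar vGluT2. In total RNA the block gave 24 in the cerebral Gad2 line, 3 in the SST line and 9 in pooled cerebellar total RNA.

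With all IP libraries in 1 fit, there were 20 genes for cerebral Gad2, 5 for cerebral vGluT2, 0 for PV, 13 for cerebellar Gad2 and 548 for cerebellar vGluT2. Size factors gave 0 genes in the cerebral vGluT2 IP and 1 in cerebellar Gad2, and no filter gave 0 and 1, with 1 in SST line total RNA. Adding SST total RNA gave 96 genes in pooled cerebral total RNA. The mouse block gave 6134 genes for the cerebral vGluT2 IP against total RNA. Members called in PV against cerebral Gad2 were 5 with size factors, with no filter and with only the 2 groups. Without the re-sequenced library the cerebellar Gad2 IP had 0 genes.

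The length index gave 7 genes in the cerebral Gad2 IP, 4 in cerebral vGluT2 and 721 in cerebellar vGluT2 with 2 members, 32 in cerebellar Gad2 line total RNA, 417 in pooled cerebral and 86 in pooled cerebellar total RNA. In cerebellar vGluT2 line total RNA it gave 0 genes and 0 members, and Cacna1e (0.29), Cacna1d (0.12), Cacna2d1 (0.55) and Cacna1c (0.0082) reversed.

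Leaving out each library gave 3 to 12 genes in the cerebral Gad2 IP, 0 to 4 in PV, 0 to 1 in SST, 0 to 1 in cerebral vGluT2, 0 to 3 in cerebellar Gad2 and 149 to 255 in cerebellar vGluT2, with 0 to 1 members. It gave 0 to 2 genes in SST line total RNA, 0 to 1 in cerebellar Gad2 line total RNA, and 4 to 6 members in cerebellar vGluT2 line total RNA. It gave 3 to 5 members in PV against cerebral Gad2 and 1 to 2 in PV against SST. With 3 to 6 libraries a group, small HD effects may not be detectable. Cacna1h at 2.37 CPM in cerebellar vGluT2 was the lowest group mean of a member in control IPs.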
